A study of Mus musculus with 9 samples.

Results

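The genes described here are 5 that are known to answer to glucocorticoids: Zbtb16, Cebpb, Cdkn1a, Mt1 and Arrdc2. They were picked for their low signal in hearts of the N-line, so their N-line difference from control is a description and carries no test. All probes whose code holds the NCBI gene number of 1 of these genes were taken, which gave 6 probes (2 for Cdkn1a and 1 for each other gene) out of 46657 on the array, and 5 genes out of 8102 with a probe named in this way. All 6 probes passed the filter on dim probes, which left 19692 probes of the series.

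RNA came from hearts of FVB mice aged 14 days that the labels call male, with 3 arrays in each of 3 groups. Control hearts are given no transgene by the labels. N-line hearts carry a transgene of the wild-type form of a membrane ion transport protein, and K-line hearts carry a mutant form of it that is constitutively active. The promoter behind the transgenes, and whether each line goes back to 1 founder, are not given in the sources used here. Nothing in the labels says that the 3 arrays of a group stand for 3 animals, and the p-values therefore speak of the variation among arrays, part of which may be technical.

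Glucocorticoids are adrenal steroids that enter cells and bind the glucocorticoid receptor, a transcription factor that chaperones hold in the cytoplasm until the hormone arrives. The bound receptor moves to the nucleus, raises some genes through response elements in DNA and lowers many inflammatory genes. In the mouse heart the receptor is known for its part in the maturation of cardiomyocytes around birth. Each of the 5 genes also answers to other inputs, such as metals for Mt1 and p53 for Cdkn1a.

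Each array detected 17937 to 19021 probes, and correlations across probes ran from 0.988 to 0.995 within groups, from 0.989 to 0.993 between control and N-line arrays and from 0.969 to 0.981 between K-line and the other arrays. All K-line arrays lie on a slide of their own, so effects of the slide and of the K-line cannot be told apart. Control and N-line arrays share a slide but hold different positions on it, so position and group cannot be told apart there. The K-line arrays also go against the label for sex: 3 of 3 K-line arrays, and no control or N-line array, detected the X-linked transcript Xist, while 0 of 3 detected the Y-linked genes Kdm5d, Ddx3y and Eif2s3y. Hence every K-line value below carries slide and sex with it, and their part in the result was not tested. The atrial marker Myl7 also differed, at -7.28 in the K-line against control on the log2 scale. Whether the samples of all groups held the same share of atrium was not tested. None of the 5 genes lies on a sex chromosome, and whether their values differ by sex was not tested.

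Levels are log2 normalised intensities, given as mean ± SD over 3 arrays, and a difference is that between 2 group means on this scale, with its standard error (SE) from a limma model of all 19692 probes. Brightness differs between probes for reasons other than RNA amount, so no gene's level is set against another's. The member probes were read on 27 to 51 beads per array. All 54 member values were detected above background (detection p under 0.05).

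Zbtb16 encodes a transcription factor with a BTB domain and zinc fingers, also called PLZF, that recruits corepressors and is strongly induced by glucocorticoids in many cell types. It had the lowest N-line difference of all 19692 probes. In the controls its signal was 9.31, 9.39 and 9.21, in N-line hearts 6.04, 6.47 and 6.44, and in K-line hearts 7.84, 8.89 and 8.33. The 3 groups did not overlap, with the controls highest, the K-line in the middle and the N-line lowest. The mean of 9.30 ± 0.09 in control stood against 6.32 ± 0.24 in the N-line, a difference of -2.99 (SE 0.22), or 7.92-fold lower. The deposited raw intensities were also apart, with 569.7 to 744.4 in control and 91.3 to 123.4 in the N-line, where the median raw intensity of all probes on an array was 52.5 to 62.2. Without background correction the difference was -2.55. In K-line hearts Zbtb16 fell by 0.95 on the log2 scale (SE 0.22, adjusted p 0.0101 by limma), 1.93-fold, to 8.35 ± 0.53. The K-line arrays spread more widely than the controls, yet the highest of them, K-line 5, stayed under the lowest control. K-line hearts lay 2.04 (SE 0.22) above the N-line. Since heart tissue holds many cell types, fewer cells that express a gene and less RNA per cell cannot be told apart.

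Cebpb encodes a leucine zipper transcription factor of the C/EBP family, which acts in acute phase responses and in fat and macrophage differentiation, and in the mouse heart it is known as a factor that drops with endurance exercise. It was the 1 member whose arrays stood clear of the controls on opposite sides in the lines, lower in the N-line and higher in the K-line, as in 1.31% of all tested probes (1.37% had the opposite arrangement). The controls read 10.71, 10.79 and 10.66, the N-line arrays 10.26, 10.07 and 10.47, and the K-line arrays 11.57, 11.51 and 11.69. All 3 groups were apart, here with the K-line on top. The N-line difference was -0.45 (SE 0.11), 1.37-fold lower, from 10.72 ± 0.07 to 10.27 ± 0.20. In the K-line Cebpb rose by 0.87 (SE 0.11, adjusted p 4.01e-04 by limma), 1.83-fold, to 11.59 ± 0.10. Beside this rise, markers of macrophages, a cell type that also expresses Cebpb, were higher in the K-line: 7 of 7 measured rose, and their summed intensity was 4676 to 8295, against 1656 to 1823 in control and 1742 to 1861 in the N-line. Of all tested probes 12.0% were called higher in the K-line. No named probe of the marker Itgam was detected on any array. The part of these markers in the Cebpb result was not tested.

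Cdkn1a encodes p21, an inhibitor of cyclin-dependent kinases that halts the cell cycle and is a classic target of p53 as well as of glucocorticoids. RefSeq (GRCm38.p6) lists windows around 2 start sites of Cdkn1a, from 250 bases before to 50 after the start. The upstream one, chr17:29090729-29091028 on the plus strand, is shown because it holds a pair of p53 element cores, CATG and CATG with 6 bases between them, which is marked by capitals:
Cdkn1a upstream start: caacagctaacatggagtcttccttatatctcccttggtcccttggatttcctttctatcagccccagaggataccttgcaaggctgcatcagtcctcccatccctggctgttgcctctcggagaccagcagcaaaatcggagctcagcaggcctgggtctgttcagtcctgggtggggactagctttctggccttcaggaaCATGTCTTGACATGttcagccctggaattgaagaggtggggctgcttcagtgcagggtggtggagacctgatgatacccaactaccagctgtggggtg
The same letters, which read alike on both strands, occur in 0.712% of the 32851 windows of this length in the table, and a match is a description, not a site that was shown to be bound here.

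Both Cdkn1a probes gave the same N-line difference. On probe 1 the controls were at 10.53, 10.35 and 10.25, the N-line arrays at 8.72, 8.86 and 8.93 and the K-line arrays at 9.97, 10.00 and 10.29. Probe 2 read 9.89, 9.52 and 9.35 in control, 7.93, 8.10 and 8.09 in the N-line and 9.31, 8.90 and 9.91 in the K-line. On either probe every N-line array lay under every other array, while K-line and control arrays overlapped. The N-line differences were -1.54 (SE 0.12), 2.90-fold lower, and -1.54 (SE 0.22), 2.92-fold lower. In the K-line probe 1 was at -0.29 (SE 0.12, 95% confidence interval -0.54 to -0.03, adjusted p 0.1 by limma) and probe 2 at -0.21 (SE 0.22, interval -0.70 to 0.27, adjusted p 0.513). Neither passed the test. Probe 1 did so with median scaling (-0.39, adjusted p 0.0413) or without K-line 6 (-0.39, adjusted p 0.0452), and without K-line 5 probe 2 turned to 0.02.

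Mt1 encodes metallothionein 1, a small cysteine-rich protein that binds zinc and copper, and it is induced by metals through the factor MTF1, by oxidants and by glucocorticoids. Its RefSeq promoter window, chr8:94178839-94179138 on the plus strand of GRCm38.p6, is shown because it carries a run of metal response cores, TGCACNC or TGCGCNC on either strand, marked by capitals:
Mt1: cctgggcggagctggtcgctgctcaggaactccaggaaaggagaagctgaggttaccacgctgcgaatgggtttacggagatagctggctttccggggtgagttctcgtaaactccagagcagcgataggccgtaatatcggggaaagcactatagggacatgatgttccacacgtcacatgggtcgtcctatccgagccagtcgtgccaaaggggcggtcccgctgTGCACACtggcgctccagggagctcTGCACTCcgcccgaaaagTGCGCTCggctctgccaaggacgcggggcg
The window holds 3 such cores, and 25.7% of all windows hold at least 1. The glucocorticoid response half-site AGAACA, searched on both strands, is in 19.0% of all windows and the full palindrome, AGAACA and TGTTCT with 3 bases between them, which contains it, in 0.00913%. Neither string is in the 5 windows found for Mt1, Cdkn1a, Cebpb and Arrdc2, nor is the C/EBP core TTGCNNAA (10.8% of windows), and elements outside these windows were not searched.

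The Mt1 probe read 14.42, 14.23 and 14.08 in control, 13, 12.89 and 13.09 in the N-line and 14.10, 14.46 and 14.70 in the K-line. The N-line arrays were all below the others, and the K-line arrays overlapped the controls and reached above them. The N-line difference was -1.25 (SE 0.15), 2.38-fold lower, from 14.24 ± 0.17 to 12.99 ± 0.10. In raw units this was 16741.6 to 24237.4 in control and 7010.7 to 8771.7 in the N-line. The K-line difference of 0.18 (SE 0.15, interval -0.15 to 0.50, adjusted p 0.418 by limma) did not pass the test, and it ran from 0.01 with median scaling to 0.34 without K-line 3.

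Arrdc2 encodes an alpha-arrestin, an adaptor that brings membrane cargo to ubiquitin ligases of the NEDD4 type. Its signal lay close to background. It read 6.36, 5.94 and 5.97 in control, 5.50, 5.71 and 5.72 in the N-line and 6.23, 6.16 and 6.50 in the K-line. The N-line arrays lay under all the others, and control and K-line arrays overlapped. The N-line difference was -0.45 (SE 0.14), 1.36-fold lower, from 6.09 ± 0.23 to 5.64 ± 0.12. Without background correction it was -0.29 and with an offset of 50 it was -0.28. The K-line difference was 0.20 (SE 0.14, interval -0.10 to 0.51, adjusted p 0.306 by limma). With the authors' value table the K-line difference was 0.49 and passed (adjusted p 0.0230), but in that table the median of all probes was itself 0.20 higher in the K-line.

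**Figure D1:**
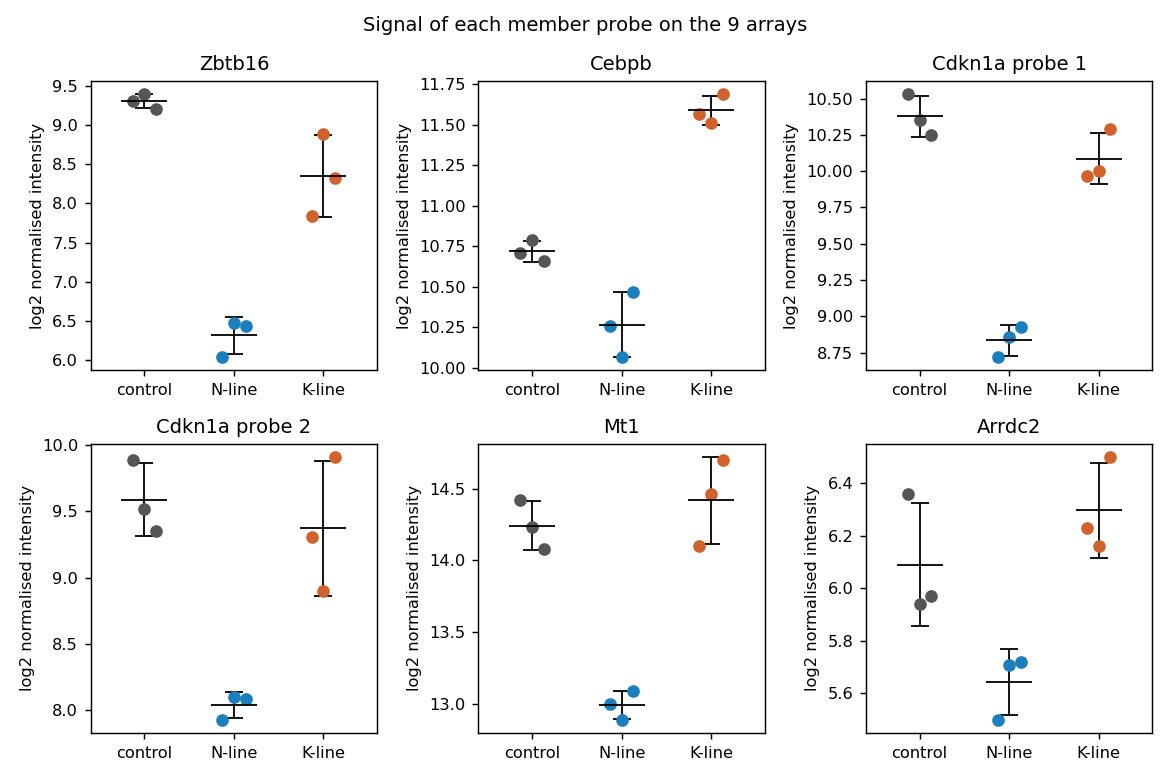
Log2 normalised intensity (vertical axes, each with its own range) of the 6 member probes on the 9 arrays. Each point is an array, the long bar is the group mean and the whiskers are its SD (n = 3). In every panel the 3 N-line arrays lie lowest, and the K-line arrays lie between control and N-line for Zbtb16 and above control for Cebpb.

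Counted over the members, 4 of 6 probes (3 of 5 genes) were among the 183 probes that the limma fit called in the N-line, which are 0.929% of all tested probes, 0.584% as falls. This count restates the choice of the genes. All 6 probes had N-line arrays entirely below the control arrays, a pattern seen in 10.4% of all tested probes (9.32% lay entirely above). The N-line differences ran from -2.99 for Zbtb16 to -0.45 for Cebpb and Arrdc2, with a median of -1.40 against 0 for all probes.

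Against control, the K-line did not repeat this pattern across the members. Zbtb16 fell, Cebpb rose and the other 4 probes did not pass the test, where 24.3% of all probes were called (12.0% higher and 12.4% lower). Arrays of 1 member probe lay entirely above the controls and those of 1 entirely below, as in 19.5% and 21.1% of all probes. The median of the 6 probes was -0.02, and that of all probes was -0.01. The comparison shares its control arrays with the one that chose the genes, which tilts it toward lower K-line values, so the fall of Zbtb16 is no independent evidence. The calls of Zbtb16 and Cebpb held in all 13 alternative settings, with differences from -1.22 to -0.70 for Zbtb16 and from 0.73 to 0.98 for Cebpb and adjusted p up to 0.0446 and 0.00283. In the authors' value table Zbtb16 was at -0.75 and Cebpb at 0.98 before the shift of 0.20 in that table is taken off.

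Between the transgenic lines, all 6 probes were higher in the K-line with no overlap of the arrays, as were 19.2% of all probes, while 20.3% were lower without overlap. The limma fit called 24.2% of all probes between the lines, 12.1% higher and 12.2% lower. The differences ran from 0.65 (SE 0.14) for Arrdc2 to 2.04 (SE 0.22) for Zbtb16. In between lay 1.25 (SE 0.12) and 1.33 (SE 0.22) for the probes of Cdkn1a, 1.32 (SE 0.11) for Cebpb and 1.43 (SE 0.15) for Mt1. No test is given, because the N-line arrays were used to choose the genes.

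**Figure D2:**
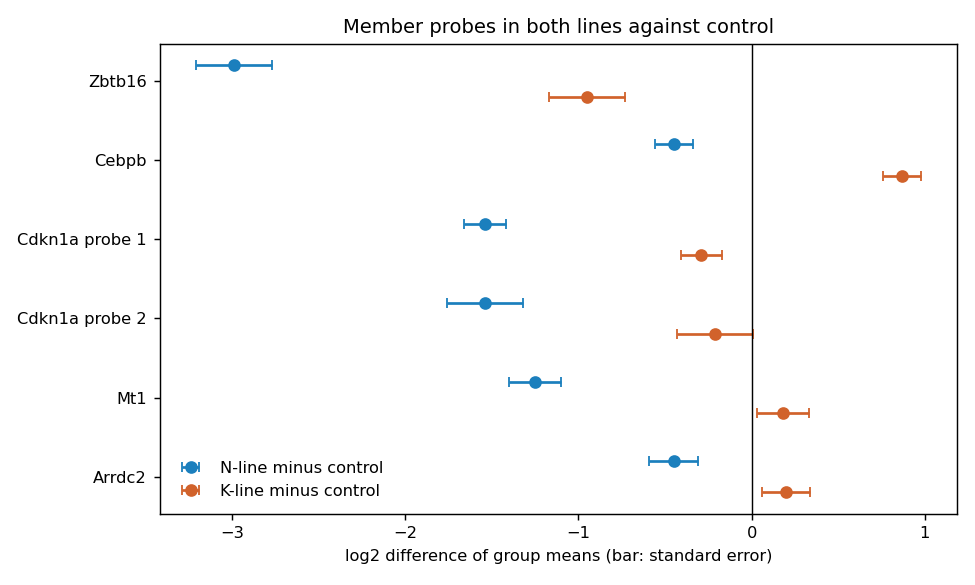
Log2 difference of group means from control (horizontal axis) for the 6 member probes in the N-line (blue) and the K-line (orange), with bars of 1 SE of the limma fit. All N-line points lie below 0, from -2.99 to -0.45, while the K-line points run from -0.95 for Zbtb16 to 0.87 for Cebpb.

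The other genes known to be raised by glucocorticoids did not pass the test in the N-line. Of 34 listed, 11 had a named probe and 9 were tested, so most of the list was not read here. No named probe of Tsc22d3 or Lpin1 was detected on any array. In the N-line 0 of 9 rose and 0 fell by limma, where 0.929% of all probes were called. An unadjusted p under 0.05 was found for 1 of the 9, and for 2320 of all 19692 probes. The unadjusted N-line counts of the lists below stand against that same background. Although 8 of the 9 lay below control, their median was -0.18, against -1.40 for the member probes, which were picked for low values, and 0 for all probes. With an array left out the list median ran from -0.27 to -0.08. Sgk1, a kinase that regulates ion channels and transporters, was at -0.28 (SE 0.11, adjusted p 0.329). Hsd11b1, the enzyme that regenerates active glucocorticoid inside cells, was at -0.32 (SE 0.17, adjusted p 0.534).

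In the K-line 2 of these 9 genes rose and 0 fell, where 24.3% of all probes were called, and the median of the list was -0.04. That median changed sign in some settings, at 0.14 without K-line 3, 0.07 without control 2 and 0.25 with the authors' value table. Errfi1, a feedback inhibitor of the EGF receptor, rose by 1.22 (SE 0.13, adjusted p 1.36e-04), with 10.25, 10.35 and 10.27 in control, 10.17, 10.32 and 10.31 in the N-line and 11.50, 11.22 and 11.80 in the K-line. The receptor kinase Mertk, which macrophages use to take up dying cells, rose by 0.57 (SE 0.16, adjusted p 0.0278). Its call ended without control 2 (adjusted p 0.102), K-line 5 (0.0837) or K-line 6 (0.0792), without the filter on dim probes (0.0789) and with only the compared groups fitted (0.054). Angptl4, a secreted inhibitor of lipoprotein lipase, was at -0.71 (SE 0.24, adjusted p 0.0562).

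Genes that glucocorticoids are known to lower were measured only in part (3 of 10 tested, with no named Ptgs2 probe detected on any array). The adhesion molecule Vcam1 rose in both lines. It read 9.12, 9.37 and 9.06 in control, 9.85, 9.85 and 9.77 in the N-line and 9.97, 9.75 and 9.93 in the K-line, so both lines lay above all controls. The rise was 0.64 (SE 0.11, adjusted p 0.0206) in the N-line and 0.70 (SE 0.11, adjusted p 0.00105) in the K-line, and both comparisons use the same controls. The N-line call ended without control 1 (adjusted p 0.0979), control 3 (0.0955), N-line 2 (0.0908), N-line 3 (0.0786) or N-line 4 (0.0816). It also ended with a term for the replicate number in the model (0.214). The chemokine Ccl2 was at 0.13 in the N-line (SE 0.16, adjusted p 0.847) and rose by 1.96 (SE 0.16, adjusted p 2.15e-05) in the K-line, where macrophage markers were also higher. The part of these markers in the Ccl2 value was not tested. The chemokine Cxcl1 was at -0.13 and 0.15 and passed in neither line.

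The receptor Nr3c1 itself was dim, at 5.67 ± 0.24 in control, 5.77 ± 0.32 in the N-line and 5.38 ± 0.30 in the K-line, where 2 of 3 arrays detected it. Its differences of 0.10 (SE 0.19, adjusted p 0.914) and -0.29 (SE 0.19, adjusted p 0.293) did not pass. Among 11 measured genes of the receptor, its chaperones and its cofactors, 0 were called in the N-line by limma (2 had an unadjusted p under 0.05) and the median was -0.14, with the chaperone Hsp90aa1 at -0.42 (SE 0.19, adjusted p 0.407). In the K-line 1 of them rose, 2 fell and the median was 0.09, where 12.0% of all probes were called higher and 12.4% lower. The cochaperone Ptges3 rose by 0.48 (SE 0.10, adjusted p 0.00573), the cochaperone Fkbp4 fell by 0.40 (SE 0.12, adjusted p 0.0346) and the corepressor Ncor1 fell by 0.41 (SE 0.12, adjusted p 0.0298). The call of Fkbp4 ended without control 1 (adjusted p 0.0620), control 2 (0.113), control 3 (0.0691), K-line 5 (0.104) or K-line 6 (0.1), with the authors' value table (-0.31, 0.0855), without the filter on dim probes (0.0628) and with only the compared groups fitted (0.0657). That of Ncor1 ended without control 1 (0.0538), control 2 (0.0867), control 3 (0.0811) or K-line 6 (0.1), with the authors' value table (-0.22, 0.188) and without the filter (0.0533).

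**Figure D3:**
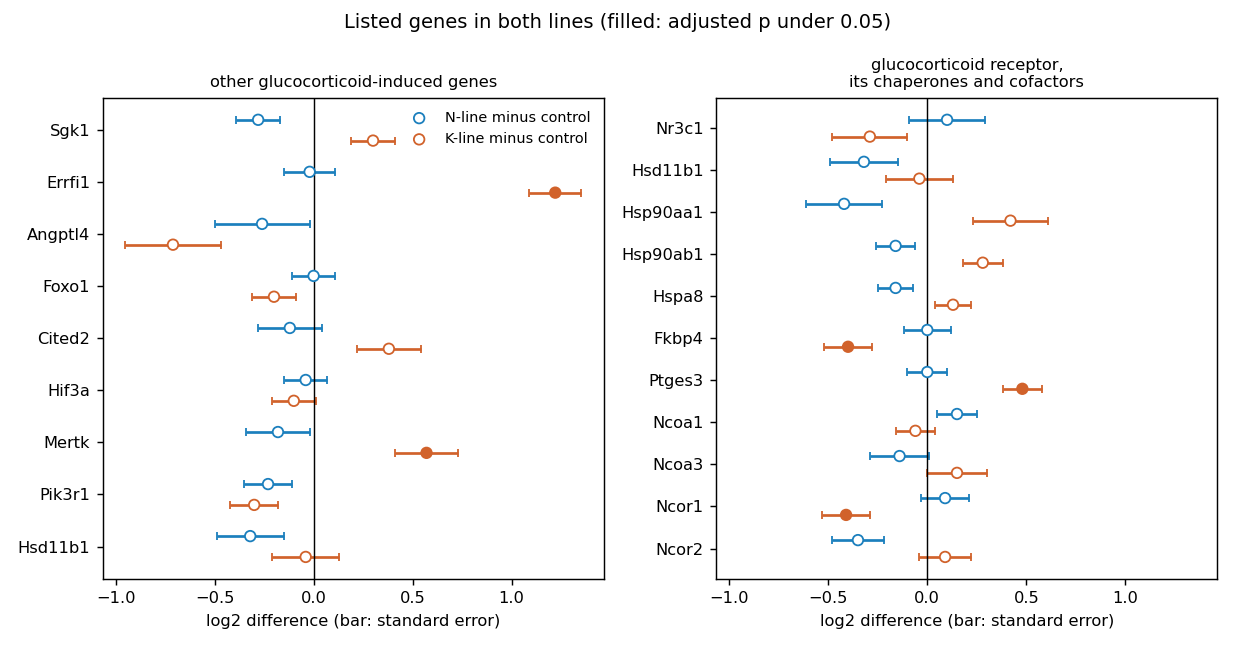
Log2 difference from control (horizontal axes) in the N-line (blue) and the K-line (orange) for 9 measured glucocorticoid-induced genes other than the members (left) and 11 genes of the receptor, its chaperones and cofactors (right), with bars of 1 SE. Filled points passed an adjusted p of 0.05 in the limma fit, which no N-line point in these panels did.

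Among other BTB zinc finger factors, the family of Zbtb16, and their partners, the only calls were falls in the K-line. Of 11 measured genes 4 fell and 0 rose there, where 12.4% of all probes were called lower and 12.0% higher. The median was -0.33 against -0.01 for all probes. Zbtb7a fell by 1.08 (SE 0.18, adjusted p 0.00192), Zbtb20 by 0.67 (SE 0.11, adjusted p 0.00199) and Zbtb17 by 0.35 (SE 0.10, adjusted p 0.0278). The partner Ncor1, also counted with the receptor's cofactors above, fell by 0.41 and lost its call in 6 of 13 alternative settings. Without control 2 (adjusted p 0.0837), control 3 (0.0899), K-line 5 (0.0756) or K-line 6 (0.0545), or with the authors' value table (-0.16, 0.236), Zbtb17 was not called. In the N-line 0 of 11 were called (3 had an unadjusted p under 0.05) and the median was -0.08, with Zbtb7a at -0.54 (SE 0.18, adjusted p 0.231).

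Genes listed around the other inputs of the members showed no call in the N-line. Of 10 metal response genes listed besides Mt1, 7 had a named probe and were tested. Mt2, Slc30a1 and Hmox1 had none. Of the 7 measured, 0 were called in the N-line (0 at an unadjusted p under 0.05) and the median was -0.04. The metal sensor Mtf1 was at -0.04 and the metallothionein Mt3 at -0.04. Whether RNA of these genes follows the input that Mt1 answers to was not tested. In the K-line 3 of these 7 genes rose, 0 fell and the median was 0.20, where 12.0% of all probes were called higher and 12.4% lower. The ferritin light chain Ftl1 rose by 0.59 (SE 0.09, adjusted p 8.20e-04), and the zinc transporters Slc39a1 and Slc39a14 rose by 0.36 (adjusted p 0.0222) and 0.32 (adjusted p 0.0371). Slc39a1 was not called without control 1 (adjusted p 0.0582), control 2 (0.0551), control 3 (0.0657) or K-line 6 (0.0749), nor with median scaling (0.26, 0.085). Slc39a14 was not called without control 1 (0.13), control 2 (0.0558), control 3 (0.0659), K-line 3 (0.0846) or K-line 5 (0.1). It also lost its call without background correction (0.20, 0.0746), with an offset of 50 (0.19, 0.0638), with median scaling (0.25, 0.131) and with only the compared groups fitted (0.0692).

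Among 4 measured partners of p21 in the G1 phase, 0 were called in the N-line (0 at an unadjusted p under 0.05), with cyclin D1 (Ccnd1) at -0.32 (SE 0.15, adjusted p 0.467). In the K-line the related inhibitor Cdkn1b rose by 0.66 (adjusted p 0.0195), from a level that 1 of 3 control arrays detected, the replication clamp Pcna rose by 0.49 (adjusted p 0.0204) and Ccnd1 fell by 0.47 (adjusted p 0.0477). The K-line median of the 4 genes was 0.43, where 12.0% of all probes were called higher and 12.4% lower. Leaving out control 2 or control 3 ended the call of Cdkn1b (adjusted p 0.0621 and 0.0668), as did dropping the filter on dim probes (0.0641). Control 2, control 3 or K-line 5 did so for Pcna (0.0755, 0.0581 and 0.0648). For Ccnd1 the call ended without control 1 (0.0619), control 2 (0.157), control 3 (0.0869), K-line 5 (0.0695) or K-line 6 (0.16), with the authors' value table (-0.36, 0.0998), without the filter (0.117) and with only the compared groups fitted (0.0597). The p53 list was measured through Ccng1 alone, at -0.04 in both lines (adjusted p 0.968 and 0.876).

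The remaining pathway lists had 0 calls in either line by limma. They held 6 arrestins and NEDD4-type ligases, with the ligase Nedd4l at -0.01 and the alpha-arrestin Arrdc3 at 0.11 in the N-line. They also held the C/EBP factor Cebpa (0.29, adjusted p 0.851 in the N-line and 1.02, adjusted p 0.0696 in the K-line) with Stat3 (-0.32 in the N-line), the clock genes Clock (-0.15) and Nr1d2 (-0.17), and the fasting genes Angptl4 (-0.26) and Foxo1 (0). Unadjusted p-values under 0.05 in the N-line numbered 0 of 6, 1 of 2, 0 of 2 and 0 of 2 in these lists, and in the K-line 1, 1, 1 and 1. Over all 19692 probes they numbered 2320 in the N-line and 7428 in the K-line.

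In the N-line, marker lists of other cells and tissues held 1 call, the atrial connexin Gja5 (0.78, SE 0.13, adjusted p 0.0213). This call ended without control 1 (adjusted p 0.101), control 3 (0.0955), N-line 2 (0.0978), N-line 3 (0.0742) or N-line 4 (0.0641). It also ended without the filter (0.0664) and with a term for the replicate number in the model (0.192). The defining cardiomyocyte marker Myh6 was at 0.11 and 5 such markers had a median of 0.07. Medians were -0.02 over 7 macrophage markers, -0.09 over 3 thymus and T cell markers, 0.11 over 10 fibroblast markers, -0.05 over 5 endothelial markers, -0.02 over 4 red blood cell markers and 0.20 over 3 fat markers. Unadjusted p-values under 0.05 were found for 1 thymus, 1 fibroblast, 1 red blood cell and 2 endothelial markers. The skeletal muscle marker Casq1 was at -0.06 and the adrenal marker Star at -0.20. No named probe of the adrenal gene Cyp11a1 was detected on any array. In the K-line the atrial pair of Myl7 (-7.28, detected on 2 of 3 K-line arrays) and Gja5 (-0.73) fell, with a summed intensity of 371 to 659 against 11180 to 12715 in control. Beside it 2 of 5 cardiomyocyte markers rose (Mybpc3 and Gata4) and 1 fell (Ryr2), and 2 of 10 fibroblast markers rose (Postn and Pcolce) and 3 fell (Fbln1, Igfbp6 and Islr). The endothelial markers Cav1 and Robo4 (2 of 5) fell, while Pecam1 (0.05), Emcn (-0.02) and Egfl7 (-0.14) were not called. Among red blood cell markers Ank1 and Dmtn (2 of 4) fell, while the globins Hba-a1 (-0.03) and Hbb-b1 (-0.01) were not called. Of all probes 12.0% were called higher and 12.4% lower in the K-line. Several of the marker calls were not stable over the 13 alternative settings. Mybpc3 lost its call in 6 (0.20, adjusted p 0.178 with median scaling, and without control 1, control 3, K-line 3 or K-line 6 among them) and Gata4 in 6 (0.35, adjusted p 0.152 without control 2, and without control 1, K-line 3 or K-line 6 among them). Islr lost it in 8 (-0.15, adjusted p 0.401 with the authors' value table, and without control 1, control 2 or any 1 K-line array among them). Cav1 lost it in 7 (-0.23, adjusted p 0.0603 with that table, and without control 1, control 3 or any 1 K-line array among them), and Ryr2 in 1 (-0.29, adjusted p 0.108 with that table). The thymus, fat and adrenal lists had 0 calls by limma and 1 unadjusted p under 0.05 each, and the skeletal muscle list had 0 of both. The part of any of these in the members' K-line values was not tested.

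Over the 9 arrays, the members most like Zbtb16 were Cdkn1a, with Pearson correlations of 0.96 and 0.87 for its probes, and Mt1 with 0.88, followed by Arrdc2 (0.69) and Cebpb (0.50). These figures describe arrays that fall into 3 groups chosen in part by these very genes. Among other named genes whose group means span at least 1 log2 unit, the 6 most alike were Dct (0.85), Ppfia1 (0.82), Nr4a3 (0.79), Sphk1 (0.75), Utp14a (0.64) and Tmem144 (0.62). A low N-line value in these genes follows from the choice by correlation with Zbtb16 and is given as a description. Dct, an enzyme of melanin synthesis, and the orphan nuclear receptor Nr4a3 were detected on all controls. Nr4a3 passed the filter on dim probes through the controls alone, and Dct mainly through them. Neither was detected on an N-line array, which leaves bounds of at least 1.87-fold lower for Dct and at least 1.59-fold lower for Nr4a3, taken against the lowest detected signal of each array or the probe's own where that was higher. In the K-line Nr4a3 was again detected on 0 arrays and at least 1.59-fold lower, and Dct, detected on 2 of 3 arrays, was at -0.83. The low K-line value of Nr4a3 follows in part from that filter and the choice by correlation. Ppfia1, a liprin scaffold protein, and Sphk1, which makes sphingosine 1-phosphate, stood lower in the N-line (-0.91 and -0.85) and higher in the K-line (0.32 and 0.44), the order of group means seen for Cebpb. Utp14a, which acts in ribosome assembly, and the membrane protein Tmem144 had that order too, at -0.54 and -0.55 in the N-line and 0.50 and 0.67 in the K-line.

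**Figure D4:**
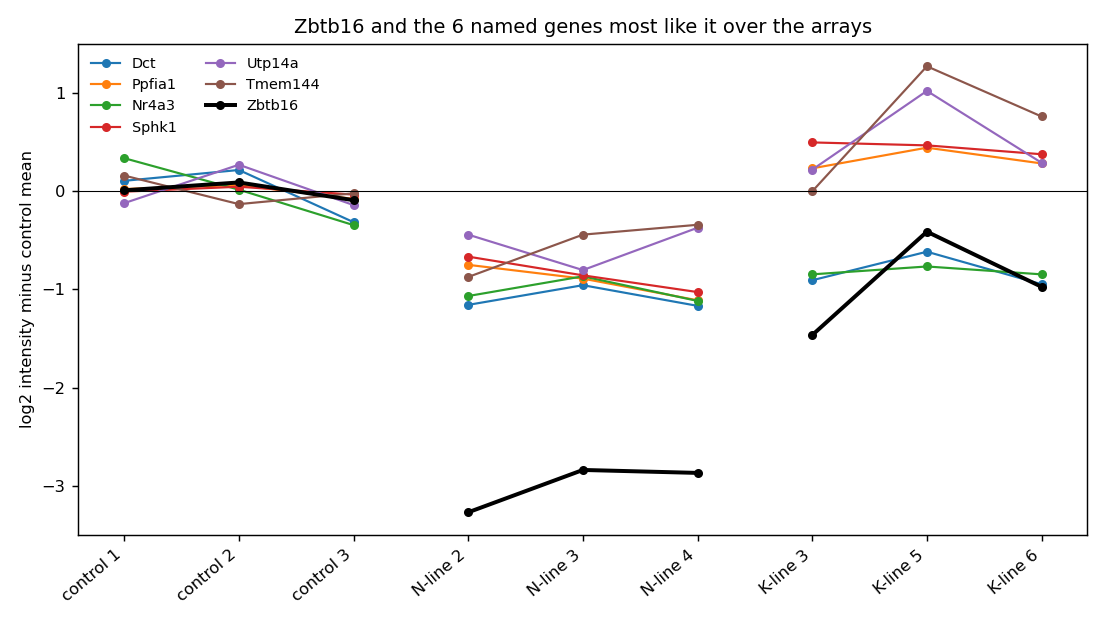
Log2 intensity minus the control mean (vertical axis) on each of the 9 arrays for Zbtb16 (black) and the 6 named genes with the highest Pearson correlation to it. Lines join arrays of the same group only to guide the eye, and Dct (N-line) and Nr4a3 (both lines) were not detected there. All 7 genes lie below the control mean on the N-line arrays, and on K-line arrays Zbtb16, Dct and Nr4a3 lie below it on every array.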

How the data were processed

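Per the file headers, the authors exported mean bead intensity per probe from BeadStudio 2.3.47 for Illumina Mouse-6 v1.1 arrays with no normalization. They also deposited a detection score, a fraction between 0 and 1, from which a detection p-value was taken as 1 minus the score. The authors' value table holds intensity after background subtraction, as between 34.4% and 35.7% of its values are negative; how it was normalized is not given here, and its medians differ between slides (7.55 to 7.57, and 9.28 to 9.29 for the K-line), so it served as an alternative. Per the labels, 100 ng of RNA was amplified and biotin-labelled.

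Raw intensities were corrected with limma 3.58.1 (normexp with detection p-values, offset 16) in R 4.3.3, quantile normalized over 9 arrays and taken to log2. The offset makes differences of dim probes smaller. Probes detected on at least 3 arrays were fitted with 3 group means (lmFit, eBayes), and p-values were adjusted by Benjamini-Hochberg over 19692 probes at 0.05. The fit was also run on simulated data with independent noise and added shifts. That simulation held no effect of slide or sex, so it says nothing on these. Bead numbers only describe precision, which the number of arrays limits.

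Probe codes were read as NCBI gene numbers (inferred: 82.6% of 11857 codes with 1 or 2 leading zeros match RefSeq GRCm38.p6), so other probes are unnamed. A gene without a named probe may still be read by an unnamed one. Lists use the brightest tested probe per gene. Members and lists (11 pathway lists, 10 marker lists) were chosen with earlier results of these data known. Genes named are all members, list genes that passed the test, up to 2 bright genes of lists without calls, and the 6 genes closest to Zbtb16 by correlation. Further genes (Sgk1, Hsd11b1, Cxcl1, Nr3c1, Hsp90aa1, Mt3, Mtf1, Angptl4 in the K-line, Myh6, genes detected on no array and the sex-linked genes) were named after their values were seen. So were Pecam1, Emcn, Egfl7, Hba-a1 and Hbb-b1. No 2 arrays shared more than 327 of 46657 raw values. Transgene expression is not reported here.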

Additional observations from a re-analysis of the deposited data

Results flagged for a closer look

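Of 106 probes of the members, the listed genes and the genes most like Zbtb16, those of 6 genes had every K-line array on one side of all control arrays and every N-line array on the other, and over all tested probes 1.31% lay higher in the K-line and lower in the N-line and 1.37% the other way. Whether the lines differ in them was not tested. Cebpb was at 0.87 in the K-line and -0.45 in the N-line. Sgk1 was at 0.30 and -0.28, Hsp90aa1 at 0.42 and -0.42, Ppfia1 at 0.32 and -0.91 and Sphk1 at 0.44 and -0.85, where the last 2 were picked for their correlation with Zbtb16. The connexin Gja5 stood the other way round, at -0.73 and 0.78. Both differences of a gene use the same control arrays, and the differences of Sgk1 and Hsp90aa1 from control did not pass the test in either line.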

How the results depend on the processing

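All 6 member probes kept their sign in the N-line and between the lines in every setting run. The N-line difference of Zbtb16 was -2.55 without background correction and with an offset of 50, that of Arrdc2 was -0.29 and -0.28 in these settings, and the K-line minus N-line difference of Arrdc2 was 0.43, 0.42 and, with the authors' value table, 0.94, where that of Cdkn1a probe 1 was 1.43. With an array left out, the N-line differences ran from -3.06 to -2.86 (Zbtb16), -0.56 to -0.35 (Cebpb), -1.60 to -1.46 and -1.66 to -1.39 (Cdkn1a), -1.33 to -1.17 (Mt1) and -0.52 to -0.31 (Arrdc2). In the K-line against control, Cdkn1a probe 1 became called with median scaling (-0.39) and Arrdc2 with the authors' value table (0.49). With an array left out the Cdkn1a probes ran from -0.39 to -0.21 and from -0.48 to 0.02 there.

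The number of probes called in the N-line depended most on the setting: 183, but 314 when the model held the compared groups alone, 337 with their slide normalized alone and 25 to 76 with an array left out (46 without control 1, 64 without control 2, 68 without control 3, 52 without N-line 2, 76 without N-line 3 and 25 without N-line 4). With the replicate block it was 16. Control and N-line share the numbers 2 and 3, whose deviations correlated at 0.22 and 0.11, but nothing in the labels pairs them. In the K-line 4795 probes were called, 49.2% of them higher, against 35.0% with median scaling and 84.1% with the authors' value table. Of the 9 other glucocorticoid-induced genes, 2 rose in the K-line; 4 did with the authors' value table, 1 without the filter on dim probes, 1 with only the compared groups, and 1 to 2 with an array left out. Falls numbered 0, but 1 without background correction, 2 with median scaling and 1 with only the compared groups. The causes were not tested.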
